A study of Mus musculus with 16 samples.

Results

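The regions described here are stretches of the mouse genome with 5-hydroxymethylcytosine (5hmC) signal that lie wholly inside introns. They were taken from the deposited table of counts over a union of peaks, as every region whose gene-part annotation names an intron and names no promoter, exon or untranslated region. This rule used no measured value, and 69422 of the 177720 regions met it (39.1%). The study compared 4 kinds of CD4 T cell, all from C57BL/6 Foxp3-eGFP reporter mice aged 5 to 6 weeks, in which green fluorescence reports Foxp3, the transcription factor that defines regulatory T cells. Naive cells (CD4+, eGFP-, CD25-, CD62Lhi, CD44lo) and Treg (CD4+, eGFP+) were sorted from spleen and lymph nodes. The induced regulatory cells (iTreg) were made in culture from naive CD4 cells, with TGFβ in 1 group and with TGFβ, retinoic acid and vitamin C (RA+VitC) in the other. No culture lacked TGFβ and none had retinoic acid or vitamin C alone, so effects of culture, TGFβ and each added compound cannot be told apart. Per group there were 2 pull-downs and 2 inputs. Nothing in the labels states that replicates are separate mice or cultures. A p-value here therefore reflects only how far libraries of the same group differed, possibly for technical reasons. That spread was estimated jointly over the 4 groups, with information shared across regions, and not from each group alone.

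5hmC is made by TET enzymes, which oxidise 5-methylcytosine. It is known both to last and to be a step towards unmodified cytosine in DNA demethylation. In T cells the mark is known to accumulate over the bodies of transcribed genes and over enhancers, many of which sit in introns. TET activity is known to rise with vitamin C. In CMS-IP, bisulfite turns 5hmC into cytosine-5-methylenesulfonate, which an antiserum then pulls down. A level of 5hmC over a gene is not a level of its expression.

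The intronic regions had a median width of 661 bp, against 745 bp over all regions, and covered 86.7 Mb of 259 Mb. Their middle lay at a median of 38.8 kb from the start of the transcript named for them. Of the members, 68385 lay in the introns of 1 gene and 1037 in introns of several overlapping genes, which were left out of values per gene. They fell in 9840 gene symbols, with a median of 3 regions each, and 757 symbols held 20 or more. Inpp4b, a phosphoinositide phosphatase, held the most, with 196 regions over 290 kb of intron, followed by the oxidoreductase gene Wwox with 179 and the GTPase-activating protein gene Arhgap15 with 161. Genes covered by wide regions drop out under such a rule: the regions over Foxp3, Il2ra and Ctla4 all touched another gene part or lay outside the gene, so none was a member.

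Pull-down libraries held 1648804 to 9731897 reads in all regions, fewest in TGFβ iTreg, and inputs held 1028822 to 1563165. A member with 0 reads can still stand at up to 3 reads, which was 0.308 to 0.391 CPM (reads scaled to a fixed library size) in the sorted cells, 0.751 and 0.784 in RA+VitC iTreg, and 1.82 and 1.42 in TGFβ iTreg. The median member held 15 to 19 reads per library in the sorted cells, 7 and 6 in RA+VitC iTreg and 3 and 4 in TGFβ iTreg. Such limits and intervals cover counting error only. Spiked-in amplicons were not used, so levels compare regions inside 1 library's total, and the total amount of 5hmC in a cell is not measured.

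Purely intronic regions took nearly the same share of pull-down reads in every group. The share was 32.4% and 32.3% in naive cells, 32.6% and 32.6% in Treg, 31.8% and 31.4% in TGFβ iTreg, and 31.6% and 31.8% in RA+VitC iTreg. In the inputs it was 34.8% to 35.2%, above all 8 pull-downs. The share in a pull-down over that in its input was 0.923 and 0.927 in naive cells, 0.937 and 0.937 in Treg, 0.908 and 0.893 in TGFβ iTreg, and 0.897 and 0.902 in RA+VitC iTreg, below 1 in every library. TGFβ iTreg had the fewest reads, and the part of depth in the comparisons with that group was not tested beyond thinning all pull-downs to 1 depth.

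Of the members, 50869 passed a filter on low counts (73.3%) and were tested; the 18553 that did not were narrow, with a median of 223 bp against 928 bp. In the tests, regions were called at an adjusted p under 0.05 in an edgeR quasi-likelihood fit over all 135412 tested regions of the table. A total of 26766 tested members (52.6%) were called in at least 1 of the 6 pairs of groups, against 54.8% of all tested regions. Among these 26766, the highest mean level was in RA+VitC iTreg for 33.2%, in naive cells for 30.1%, in Treg for 20.9% and in TGFβ iTreg for 15.8%. The lowest was in naive cells for 35.2%, in RA+VitC iTreg for 27.2%, in TGFβ iTreg for 20.1% and in Treg for 17.5%. These shares were not computed over all regions, and the part of depth in them was not tested. None of the 15364 members tested in the inputs was called by edgeR in any of the 6 pairs; at an unadjusted p under 0.05, 341 to 490 members were higher and 376 to 419 lower.

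**Figure D1:**
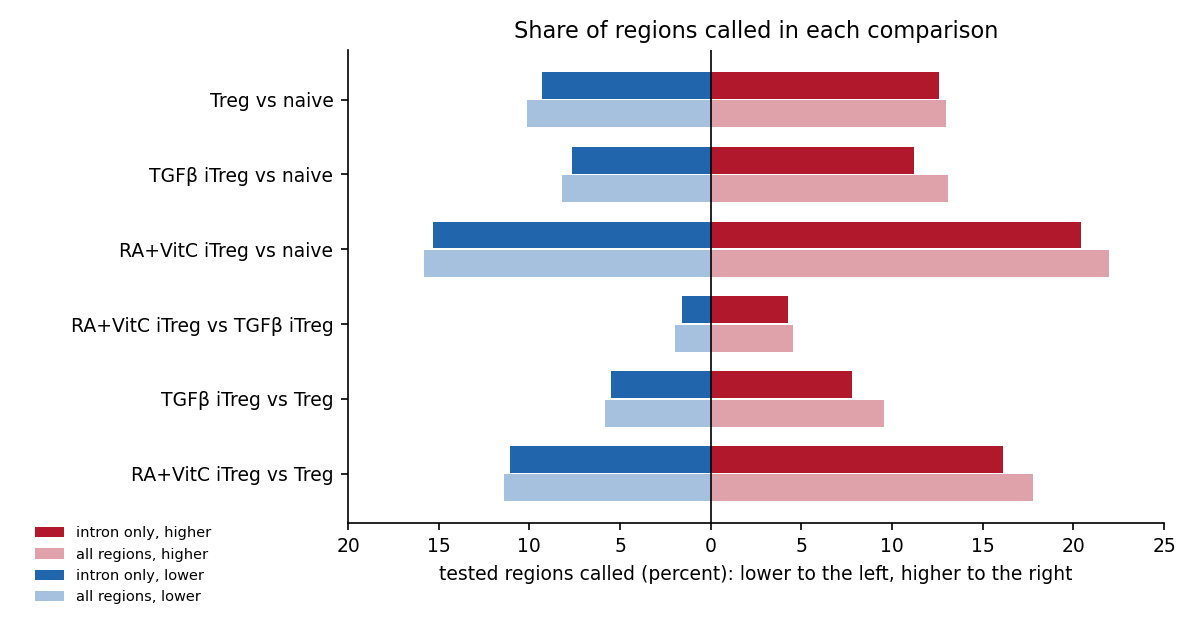
Percent of tested regions called higher (right) and lower (left) in each of the 6 comparisons, for intron-only regions (dark) and for all regions of the table (pale). Intron-only regions were called slightly less often than all regions in every comparison, and RA+VitC iTreg against naive cells gave the most calls (20.4% higher, 15.3% lower).

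Treg and naive cells differed over many introns in both directions. Of the tested members, 6414 (12.6%) were higher in Treg and 4728 (9.29%) lower; the background over all tested regions was 13.0% higher and 10.1% lower. Rad51b, a DNA repair gene, held the most regions higher in Treg (47 of 86 tested), followed by the protein kinase C gene Prkca (40 of 66), the class IIa histone deacetylase Hdac9 (39 of 52) and the mitochondrial tRNA synthetase Fars2 (37 of 73). St6galnac3, Ppm1l, Ldlrad4 and Atxn1 followed with 32 to 35 each. Most regions lower in Treg lay in Msra, a methionine sulfoxide reductase (33 of 63), Slc4a4, a sodium bicarbonate cotransporter (32 of 41), Wwox (30 of 136), Chn2 (26 of 45), the mannosidase gene Man1c1 and the kinase gene Prkce (23 each), the transcription factor gene Sox5 (20 of 93) and the prolactin receptor gene Prlr (18 of 26). Long genes with many regions head such counts, so genes were also ranked by share. All 14 tested regions of Itgb8, the β8 integrin chain that activates latent TGFβ on Treg, and all 9 of the receptor tyrosine kinase gene Kit were higher in Treg. All 10 tested regions of the ubiquitin ligase Pdzrn3 were lower, as were 15 of 16 in Cox10 and 8 of 9 in Tgfbr3, a TGFβ co-receptor.

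Reads were also summed over all introns of a gene, which gives each gene 1 value. By these sums 17.1% of the 8908 tested symbols were higher in Treg and 14.4% lower. Summed intronic levels of Hdac9 stood at 55.4 and 55.2 CPM in naive cells, 245 and 244 in Treg, 157 and 131 in TGFβ iTreg, and 87.3 and 106 in RA+VitC iTreg. Every Treg library was above every other library, and the Treg level was 4.48-fold the naive level (log2 2.17, SE 0.06, adjusted p = 2.09e-98). For Itgb8 the levels were 5.07 and 6.94 in naive cells and 49.9 and 44.0 in Treg, a 7.76-fold difference (log2 2.96, SE 0.13, adjusted p = 1.92e-61). Itgb8 was intermediate in TGFβ iTreg (32.7 and 31.9) and lower in RA+VitC iTreg (13.3 and 12.7). Slc4a4 went the other way, from 231 and 232 in naive cells to 71.8 and 71.2 in Treg, where it fell by 1.68 on the log2 scale (SE 0.06, adjusted p = 1.59e-76). Pdzrn3 stood at 37.2 and 38.2 in naive cells and 8.74 and 7.97 in Treg, 4.46-fold lower (adjusted p = 1.91e-40).

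Single regions showed the same separation. An intronic region 2.55 kb into Zc3h12c, which encodes a CCCH zinc finger ribonuclease (chr9:51972807-51974534, mm9), held 0.865 and 0.297 CPM in naive cells and 11.2 and 13.7 in Treg. The other groups were at 1.93 to 3.44 in TGFβ iTreg and 0.864 to 1.98 in RA+VitC iTreg, so the Treg libraries stood alone. Its log2 difference between Treg and naive cells was 4.45 (SE 0.31, adjusted p = 5.55e-44), and mean input levels were 9.12 in naive cells and 8.65 in Treg. In Hdac9 a region 359 kb from the start (chr12:35241213-35244389) held 0.989 and 1.59 in naive cells against 15.5 and 16.7 in Treg (log2 3.59, SE 0.24, adjusted p = 2.47e-48). In Slc4a4 a region 202 kb from the start (chr5:89515681-89520730) held 21.6 and 20.4 in naive cells and 3.82 and 3.64 in Treg, a log2 difference of -2.49 (SE 0.18, adjusted p = 1.05e-40). A further region of Ctnnd2, a δ-catenin gene, behaved likewise (chr15:30587954-30590631), with 16.2 and 16.2 in naive cells and 2.46 and 3.53 in Treg (log2 -2.42, SE 0.20). Mean input levels in naive cells and Treg were 13.2 and 15.6 at the Hdac9 region and 19.7 and 17.4 at the Slc4a4 region. At the Ctnnd2 region they were 9.55 and 8.65. The higher group's pull-down level thus lay close to its input level in Hdac9 and Slc4a4, each scaled to its own library's reads.

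Some long genes changed both ways. In Wwox 28 regions were higher in Treg and 30 lower, and the summed reads did not pass the test (log2 -0.10, SE 0.04, adjusted p = 0.079). Arhgap15 had 9 higher and 17 lower, and Akap6, an A-kinase anchoring protein gene, 8 higher and 13 lower. Of 558 genes with at least 8 tested and 5 called regions, 284 (50.9%) had all calls in 1 direction. Leaving out either naive library or Treg replicate 2 lowered the count of higher regions by over 1.5 times (to 4045, 3526 and 4058), and leaving out any of the 4 libraries did so for lower regions (2647 to 3104).

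**Figure D2:**
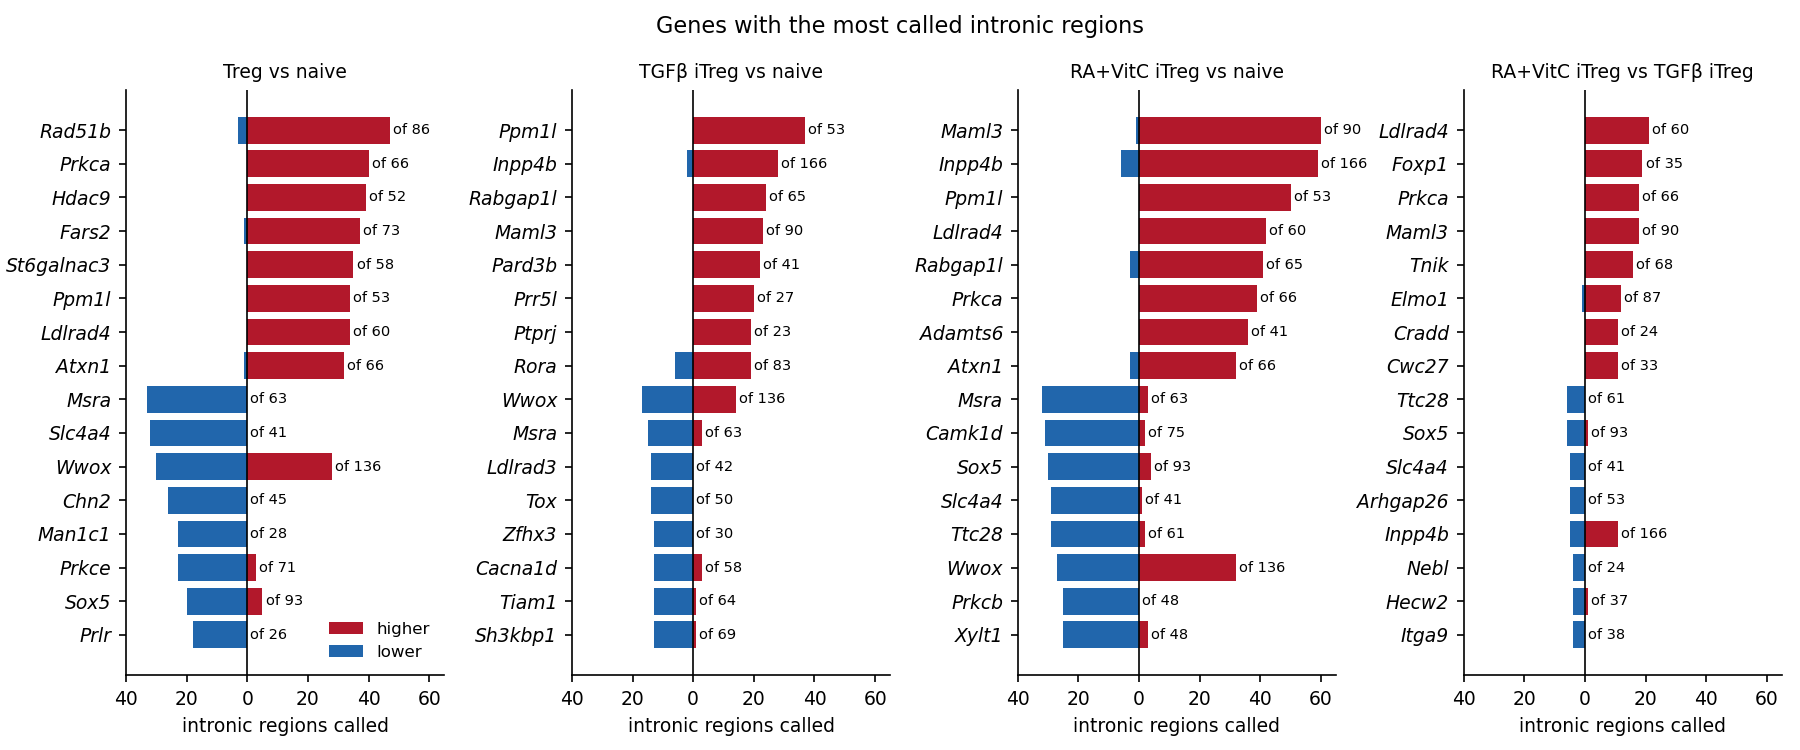
Intronic regions called higher (red, right) and lower (blue, left) in the genes with the most calls, for 4 comparisons; the number beside each bar is the number of regions tested in that gene. Rad51b (47 of 86), Ppm1l (37 of 53), Maml3 (60 of 90) and Ldlrad4 (21 of 60) lead the panels, and Wwox carries regions of both directions against naive cells.

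TGFβ iTreg against naive cells gave 5710 members higher (11.2%) and 3881 lower (7.63%), beside 13.1% and 8.22% of all regions. Ppm1l, a protein phosphatase gene, led with 37 of 53 regions higher and none lower. It was followed by Inpp4b (28 of 166), Rabgap1l (24 of 65), the Notch coactivator Maml3 (23 of 90), the polarity gene Pard3b (22 of 41), Prr5l (20 of 27), the receptor phosphatase Ptprj (19 of 23) and the nuclear receptor Rora (19 of 83, with 6 lower). By share, all 9 regions of Igfbp7 were higher, 10 of 11 in Enox2, and 8 of 9 in both Etv1, an ETS transcription factor, and the kinase gene Nek6. Fewer regions per gene were lower: 17 of 136 in Wwox (with 14 higher), 15 of 63 in Msra (with 3 higher), 14 in Ldlrad3 and in Tox, and 13 of 30 in the transcription factor gene Zfhx3. The summed reads of Wwox did not pass the test (log2 -0.10, SE 0.05, adjusted p = 0.131).

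The gene sums were higher for 18.4% of symbols and lower for 12.9%. Summed Ppm1l levels stood at 139 and 138 CPM in naive cells, 266 and 254 in Treg, 517 and 564 in TGFβ iTreg and 794 and 760 in RA+VitC iTreg. The 4 groups did not overlap, and TGFβ iTreg stood 4.01-fold above naive cells (adjusted p = 1.03e-95). Igfbp7 rose 14.9-fold, from 13.4 and 11.4 in naive cells to 156 and 199 in TGFβ iTreg (log2 3.90, SE 0.11, adjusted p = 2.68e-101). Prr5l, whose product binds the mTORC2 complex, went from 37.1 and 39.6 to 255 and 262, a 6.90-fold rise (adjusted p = 3.05e-97). Zfhx3 fell from 291 and 292 to 139 and 152 (1.95-fold, adjusted p = 5.05e-29).

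Among called regions averaging 30 or more reads per library whose replicates did not overlap, the highest difference lay 11.7 kb into Gldc, the glycine decarboxylase of the mitochondrial glycine cleavage system (chr19:30236717-30239716). It held 0.865 and 0.594 CPM in naive cells, 1.11 and 1.94 in Treg, 41.3 and 48.3 in TGFβ iTreg and 54.0 and 49.6 in RA+VitC iTreg. Both cultured groups were far above both sorted groups, and TGFβ iTreg exceeded naive cells by 5.94 on the log2 scale (SE 0.28, adjusted p = 2.14e-100). A region 380 kb into Dock1, a guanine nucleotide exchange factor (chr7:142241554-142243222), was highest in TGFβ iTreg: 34.4 and 33.3, against 0.124 and 0.892 in naive cells, 4.80 and 5.69 in Treg and 11.6 and 9.80 in RA+VitC iTreg. Its difference from naive cells was 5.89 on the log2 scale (SE 0.31, adjusted p = 4.96e-76). At the other end, a region of the ubiquitin ligase gene Rnf144a (chr12:27066287-27067611) held 9.77 and 9.71 in naive cells and 1.15 and 1.93 in TGFβ iTreg, where the level rests on 6 reads over both libraries (log2 -2.61, SE 0.45, adjusted p = 1.52e-07). Leaving out either TGFβ library cut the count of lower regions to 1914 or 2022, and leaving out TGFβ iTreg replicate 2 cut that of higher regions to 3115.

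RA+VitC iTreg against naive cells gave the most calls. Of the members, 10396 were higher (20.4%) and 7797 lower (15.3%), beside 21.9% and 15.8% of all regions. With only regions averaging at least 50 reads tested, 49.1% of calls on members were higher in place of 57.1%. Scaling mattered most in the comparisons with this group: with plain library size in place of TMM, which takes most regions as unchanged, the median log2 difference over members moved from -0.06 to -0.27, and the calls became 8636 higher and 11858 lower (42.1% of calls higher in place of 57.1%). All 135412 tested regions then gave 24564 higher and 32487 lower. Directions of single genes below are therefore relative to the bulk of regions. Maml3 had 60 of 90 regions higher (56 with plain library size), Inpp4b 59 of 166 (42), Ppm1l 50 of 53, Ldlrad4, a transmembrane inhibitor of TGFβ signalling, 42 of 60, Rabgap1l 41 of 65, Prkca 39 of 66, the metalloproteinase gene Adamts6 36 of 41 and Atxn1 32 of 66. All 23 tested regions of Ptprj, all 11 of Actr3b, all 9 of Etv1 and all 9 of Gldc were higher. The regions lower than in naive cells were most frequent in Msra (32 of 63), the calmodulin-dependent kinase gene Camk1d (31 of 75), Sox5 (30 of 93), Slc4a4 and Ttc28 (29 each), Wwox (27, with 32 higher), the protein kinase C gene Prkcb (25 of 48) and Xylt1 (25 of 48). By share, Zfp536 (12 of 13), Lrrc1 (8 of 9), Khdrbs3 and Sox13 (7 of 8 each) led.

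Gene sums were higher for 26.2% of symbols and lower for 21.5%. Gldc sums stood at 2.97 and 3.27 CPM in naive cells, 5.91 and 7.18 in Treg, 64.3 and 79.7 in TGFβ iTreg and 109 and 94.5 in RA+VitC iTreg. The RA+VitC libraries exceeded all others, 31.9-fold above naive cells (log2 5.00, SE 0.15, adjusted p = 5.15e-100). Etv1 showed the same order, with 12.7 and 11.7 in naive cells, 14.9 and 14.0 in Treg, 95.3 and 77.7 in TGFβ iTreg and 172 and 139 in RA+VitC iTreg, a 12.6-fold difference from naive cells (adjusted p = 2.91e-104). Ptprj rose from 91.1 and 90.9 to 644 and 577 (6.64-fold, adjusted p = 2.11e-132). Zfp536, a zinc finger gene, fell from 94.3 and 88.7 to 30.8 and 39.2 (2.64-fold, adjusted p = 3.68e-32).

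Among single regions, one 48.1 kb into Ppp2r5c, a regulatory subunit of protein phosphatase 2A (chr12:111186951-111190440), held 0.989 and 1.09 CPM in naive cells, 4.93 and 3.76 in Treg, 16.6 and 19.3 in TGFβ iTreg and 60.2 and 51.6 in RA+VitC iTreg. The groups followed each other without overlap, and the difference from naive cells was 5.71 on the log2 scale (SE 0.21, adjusted p = 1.48e-157). A region of Ate1, the arginyl transferase gene (chr7:137578805-137580042), held 10.1 and 9.02 in naive cells, 4.80 and 5.01 in Treg, 5.74 and 3.38 in TGFβ iTreg and 0.565 and 1.15 in RA+VitC iTreg, where it rests on 6 reads (log2 -3.44, SE 0.41, adjusted p = 1.49e-15). Calls against naive cells were of both directions in 44.0% of the 967 genes with 5 or more of them, with at least 2 regions each way, and in 1 direction in 33.1%. Rora had 22 higher and 17 lower, and the exocyst gene Exoc4 had 20 and 16. Without RA+VitC iTreg replicate 1 or 2 the count of lower regions was 4013 or 4480.

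**Figure D3:**
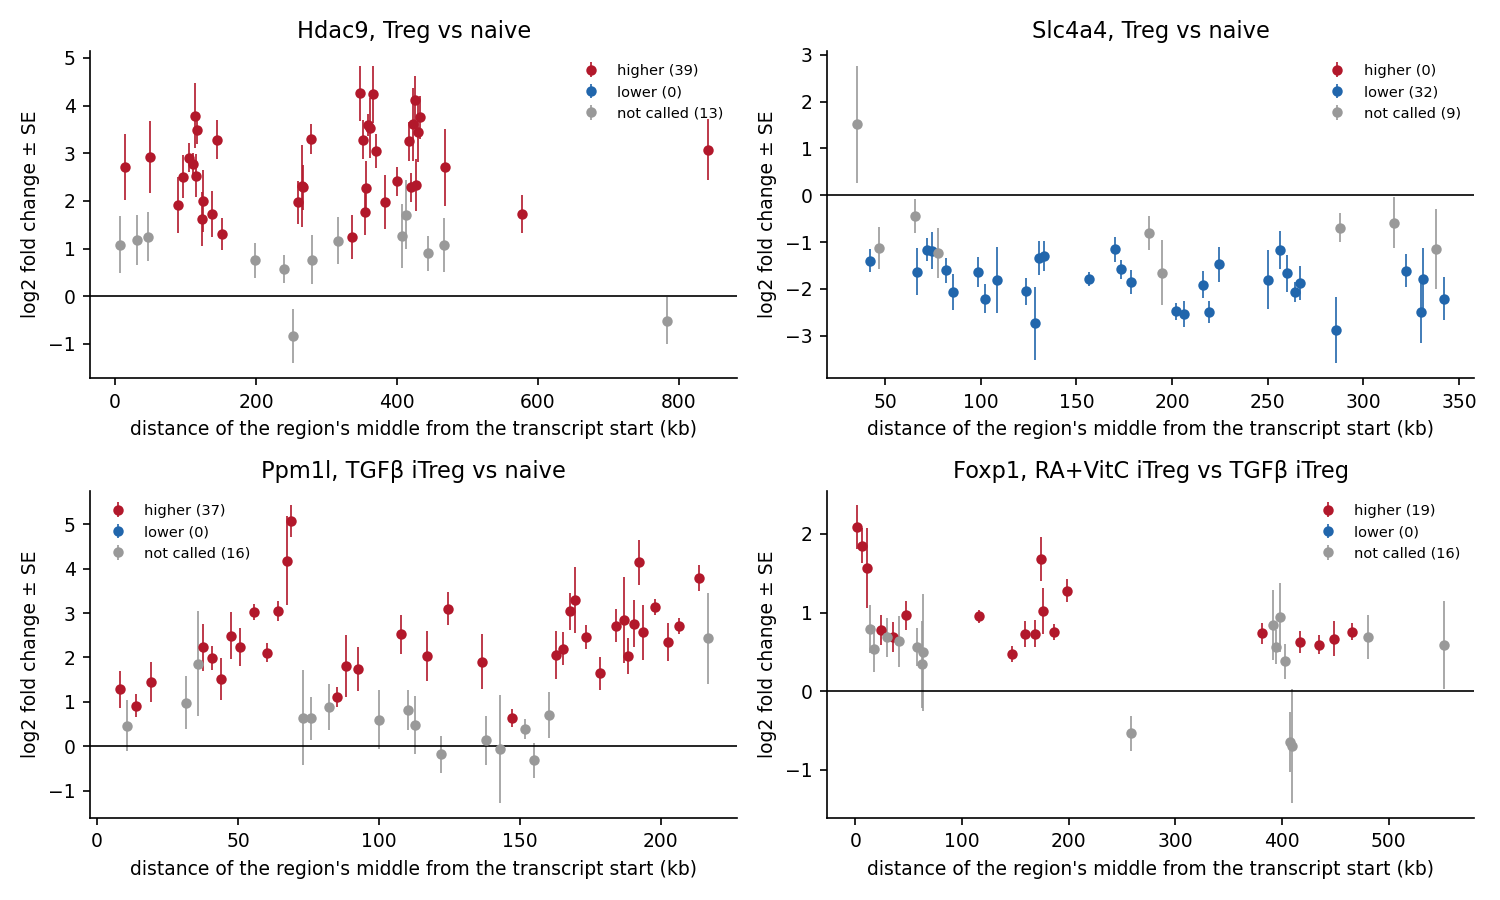
Log2 fold change (± SE) of each tested intronic region against its distance in kb from the transcript start, in Hdac9 and Slc4a4 (Treg against naive cells), Ppm1l (TGFβ iTreg against naive cells) and Foxp1 (RA+VitC iTreg against TGFβ iTreg); red points were called higher, blue lower and grey not called. Called regions of Hdac9 (39 of 52), Slc4a4 (32 of 41), Ppm1l (37 of 53) and Foxp1 (19 of 35) all point in 1 direction within each gene. They reach from 41.9 to 342 kb in Slc4a4, 8.05 to 214 kb in Ppm1l and 1.25 to 465 kb in Foxp1, with uncalled regions between them. In Hdac9 most lie at 13.9 to 468 kb, and the others at 578 and 841 kb, the last beyond the longest transcript (821 kb).

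The comparison of the cultures with and without RA+VitC gave the fewest calls at full depth. RA+VitC iTreg had 2172 members higher (4.27%) and 807 lower (1.59%) than TGFβ iTreg, beside 4.56% and 1.98% of all regions. With plain library size the counts were 1261 higher and 1396 lower (47.5% of calls higher in place of 72.9%), since that scaling moved the median member from 0.01 to -0.17. All 135412 tested regions then gave 3595 and 4543. With only regions averaging at least 50 reads tested, 942 members were higher and 737 lower (56.1% of calls higher). All regions tested under that filter gave 2803 and 2882. The balance of directions thus rests on the scaling and also moved with the filter. With all pull-downs thinned to equal depth 16358 members were tested, and the counts were 970 and 659 (59.5% of calls higher). All 49835 regions tested at that depth gave 2758 and 2357. Treg against naive cells then had the fewest calls (928 and 624, 59.8% higher), beside 2957 and 2077 over all regions. The lead genes kept their direction: Ldlrad4 had 21 of 60 regions higher (17 with plain library size), Foxp1, a forkhead repressor that holds T cells in quiescence, 19 of 35 (15, with 1 lower), Prkca 18 of 66 (16), Maml3 18 of 90 (14) and the kinase gene Tnik 16 of 68 (9). Elmo1, Cradd and Cwc27 followed with 11 or 12. By share, the laminin gene Lamc1 (8 of 11), the transcription factor Runx1 (9 of 14), the calcium sensor Stim2 (5 of 8) and the methyltransferase Prdm2 (7 of 12) led. The most regions lower were 6 each in Ttc28 and Sox5 (8 and 11 with plain library size). Slc4a4, Arhgap26 and Inpp4b had 5 each, the last with 11 higher, and Nebl and Itga9 4 each.

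By gene sums, 10% of symbols (893 of 8908) were higher with RA+VitC and 6.74% lower. Foxp1 sums were 1359 and 1367 CPM in naive cells, 1163 and 1137 in Treg, 1193 and 1293 in TGFβ iTreg and 2222 and 2108 in RA+VitC iTreg. The RA+VitC libraries stood above all 6 others, at 1.68-fold the TGFβ level (log2 0.75, SE 0.05, adjusted p = 4.88e-37). Lamc1 was at 102 and 96.3 in naive cells, 238 and 259 in Treg, 293 and 317 in TGFβ iTreg and 916 and 850 in RA+VitC iTreg (2.79-fold against TGFβ iTreg, adjusted p = 1.04e-67). Prkca went from 948 and 1069 in TGFβ iTreg to 2037 and 1930 (1.90-fold, adjusted p = 5.17e-48). Runx1 was lowest in TGFβ iTreg (443 and 491) and highest in RA+VitC iTreg (898 and 860), with naive cells at 692 and 701 and Treg at 547 and 535 (1.81-fold between the cultures, adjusted p = 1.33e-35). Itga9, an integrin chain, was close in the first 3 groups (301 to 334 over their 6 libraries) and lower with RA+VitC (186 and 184; log2 -0.76, SE 0.07, adjusted p = 1.62e-19).

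Region by region, a site 2.83 kb into Lamc1 (chr1:155175189-155178986) held 12.6 and 11.1 CPM in TGFβ iTreg and 67.8 and 54.7 in RA+VitC iTreg (log2 2.38, SE 0.20, adjusted p = 1.05e-29), with 4.57 and 5.75 in naive cells and 10.6 and 13.7 in Treg. A site in the lipid droplet gene Ldah (chr12:8248795-8251555) went from 4.02 and 5.31 to 28.5 and 23.6 (log2 2.46, SE 0.30, adjusted p = 7.52e-14). The reverse held in Bckdhb, a subunit of the branched-chain ketoacid dehydrogenase (chr9:83915006-83916177). It stood at 60.8 and 64.7 in TGFβ iTreg and 12.4 and 10.4 in RA+VitC iTreg, while naive cells had 3.09 and 2.58 and Treg 6.28 and 5.13 (log2 -2.46 between the cultures, SE 0.18, adjusted p = 2.44e-37). In Ssh2, a cofilin phosphatase gene (chr11:77185762-77187213), TGFβ iTreg stood alone at 33.3 and 34.3, against 7.06 and 7.20 with RA+VitC and 3.46 to 4.33 in the sorted cells (log2 -2.24, SE 0.24, adjusted p = 1.93e-18). Leaving out TGFβ iTreg replicate 1 left 1151 regions higher, leaving out RA+VitC iTreg replicate 1 left 1422, and leaving out any of the 4 libraries left 277 to 436 lower. Among the 88 genes with at least 5 called regions, 65 (73.9%) had all in 1 direction.

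**Figure D4:**
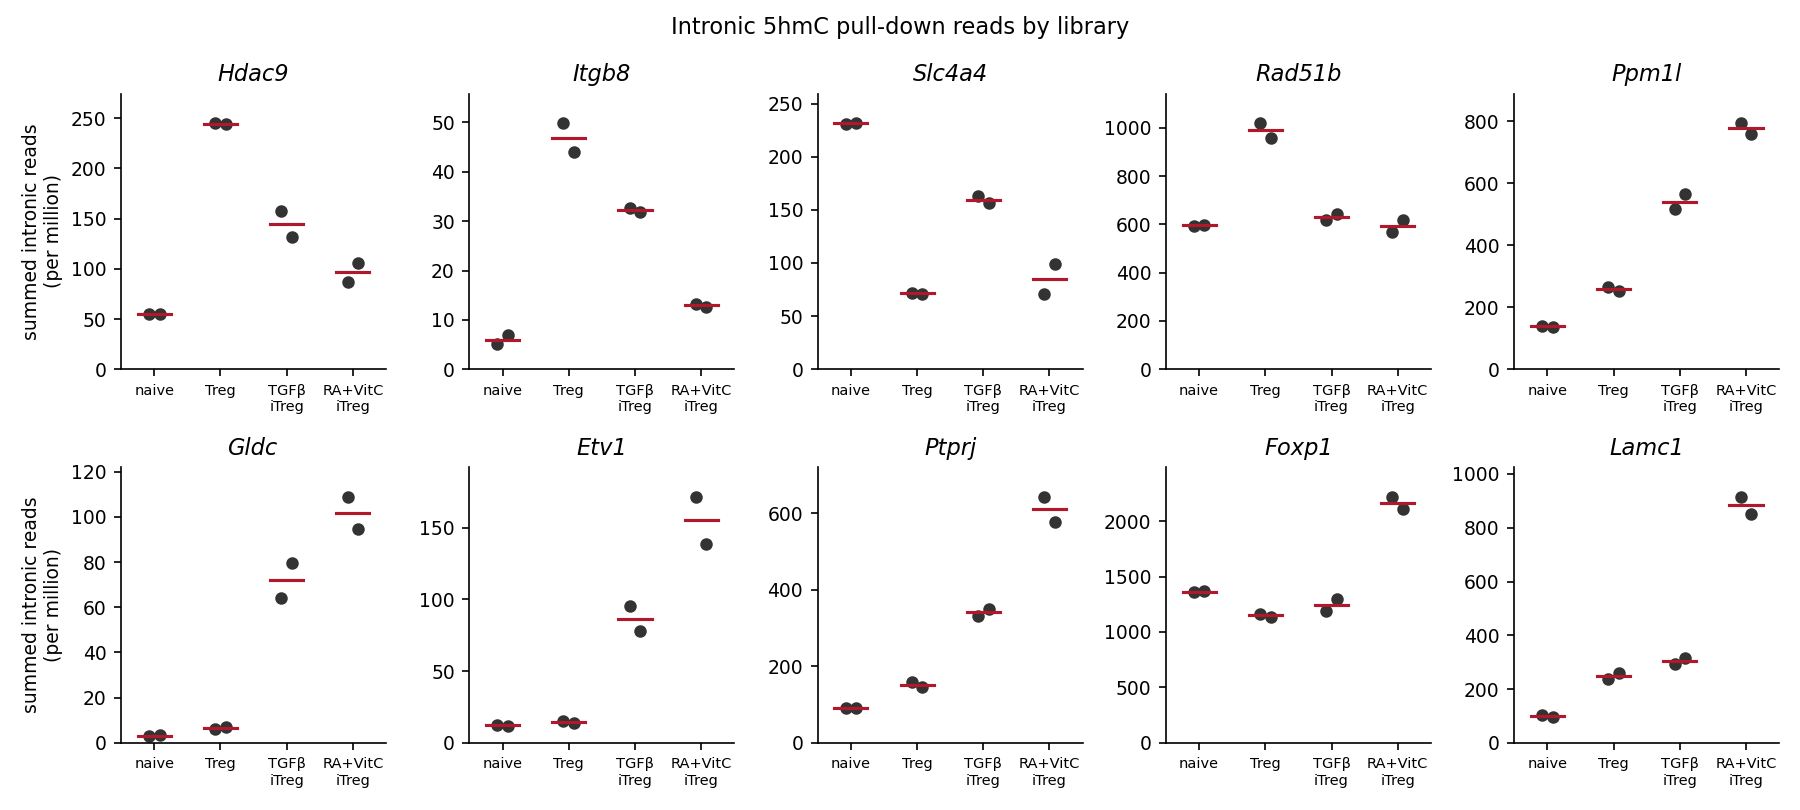
Reads summed over the introns of 10 genes, in CPM, for the 2 pull-down libraries of each group (points) with their mean (red line); each axis starts at 0 and has its own scale. Hdac9, Itgb8 and Rad51b peak in Treg, Slc4a4 in naive cells, and Ppm1l, Gldc, Etv1, Ptprj, Foxp1 and Lamc1 in RA+VitC iTreg.

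TGFβ iTreg against Treg gave 3974 members higher (7.81%) and 2791 lower (5.49%), beside 9.58% and 5.82% of all regions. Most regions higher in the cultured cells lay in Inpp4b (28 of 166), the exchange factor Dock4 and Ppm1l (18 each), the TEA-domain transcription factor Tead1 (16 of 19), Maml3 (16 of 90), Immp2l and Pard3 (15 each) and Ctnnd2 (14 of 30). Rad51b had the most regions lower (27 of 86), followed by Ldlrad4 and Ttc28 (15 each), the forkhead gene Foxn3 (14 of 23), the glycosyltransferases Mgat5 and St6galnac3 (14 each), and Msi2 and Tox (12 each). By gene sums 14.5% of symbols were higher and 10.6% lower. Tead1 sums stood at 10.3 and 10.9 CPM in Treg and 75.2 and 90.3 in TGFβ iTreg, a 7.89-fold difference (adjusted p = 5.67e-56), with naive cells at 6.06 and 8.32. Rad51b sums were 1020 and 959 in Treg and 617 and 642 in TGFβ iTreg (log2 -0.64, SE 0.05, adjusted p = 1.17e-25); naive cells (595 and 599) and RA+VitC iTreg (567 and 617) lay near the latter. A region 22.8 kb into Cfap206 (chr4:34640323-34641655) held 2.59 and 1.94 in Treg, 50.5 and 54.1 in TGFβ iTreg and 33.6 and 31.1 in RA+VitC iTreg (log2 4.53 for TGFβ iTreg against Treg, SE 0.22, adjusted p = 1.90e-92). Without TGFβ iTreg replicate 2 the counts were 2013 higher and 1294 lower, and without replicate 1 the lower count was 1307.

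RA+VitC iTreg against Treg gave 8197 members higher (16.1%) and 5617 lower (11%), beside 17.8% and 11.4% of all regions. Plain library size turned the balance to 6221 higher and 10011 lower (38.3% of calls higher in place of 59.3%). All 135412 tested regions then gave 18461 and 27227. With only regions averaging at least 50 reads tested, 49.1% of calls on members were higher. Maml3 had 50 of 90 regions higher (46 with plain library size), Inpp4b 49 of 166 (36), Ppm1l 36 of 53, the engulfment adaptor Elmo1 34 of 87, Pard3 26 of 55, Jazf1 25 of 50, Ldlrad4 25 of 60 and Cwc27 23 of 33. All 14 regions of the chromatin protein gene Hmga2, all 11 of Actr3b, all 10 of Stxbp6 and all 9 of Etv1 were higher. Rad51b had 41 of 86 regions lower, Ttc28 35 of 61, the IGF1 receptor gene Igf1r 33 of 53, the cGMP-dependent kinase Prkg1 31 of 56, Hdac9 25 of 52 and Itgb8 11 of 14. By gene sums 23.1% of symbols were higher and 18.3% lower. Hmga2 stood at 46.9 in both Treg libraries and at 224 and 214 in RA+VitC iTreg, 4.55-fold higher (adjusted p = 1.23e-85). Stxbp6 stood at 3.08 and 2.62 in Treg and 101 and 41.2 in RA+VitC iTreg; both cultured libraries were above both Treg libraries, but they differed from each other by more than a factor of 2 (24.2-fold over Treg, adjusted p = 1.35e-69). Both named regions of the GTPase-activating protein gene Arhgap20 were highest in Treg. The wider (chr9:51579556-51584027) held 26.0 and 25.4 there, 1.41 and 3.46 in RA+VitC iTreg, 6.31 and 6.28 in TGFβ iTreg and 3.46 and 2.68 in naive cells (log2 -3.39 for RA+VitC iTreg against Treg, SE 0.26, adjusted p = 1.45e-37). Without RA+VitC iTreg replicate 1 or 2 the count of lower regions was 2482 or 2969.

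Genes of known T cell programmes were read from lists, each described by its intronic regions. Over all tested members the shares higher and lower against naive cells were 12.6% and 9.29% in Treg, 11.2% and 7.63% in TGFβ iTreg, and 20.4% and 15.3% in RA+VitC iTreg. Of 33 genes of the Treg signature, 12 had tested intronic regions, 86 in all. In Treg against naive cells 46 of these regions were higher and none lower (53.5% against 12.6% of all members), with a median log2 difference of 0.88 against -0.004 over all tested members. Itgb8 (14 of 14), Nrp1, the semaphorin co-receptor neuropilin-1 (12 of 25), Ikzf2, which encodes the Treg transcription factor Helios (5 of 5), and the ectonucleotidase gene Entpd1 (4 of 21) gave most of them. Ikzf2 sums stood at 103 and 106 CPM in naive cells, 405 and 427 in Treg, 229 and 232 in TGFβ iTreg and 278 and 264 in RA+VitC iTreg. The groups did not overlap, though the cultures did not pass the test against each other (adjusted p = 0.067). Both cultured groups were also above naive cells over the list: 31 regions higher and 1 lower in TGFβ iTreg, and 42 higher and 2 lower in RA+VitC iTreg. Nrp1 went beyond the Treg level in RA+VitC iTreg, with 213 and 208 against 126 and 114 (12 of 25 regions higher and none lower; sum 1.71-fold, adjusted p = 1.03e-24).

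The naive T cell quiescence list had 90 tested regions in 12 of 21 genes. Its regions were more often lower than higher in Treg (8 higher, 23 lower against naive cells) and in TGFβ iTreg (11 and 18), and more often higher in RA+VitC iTreg (41 and 8; 33 and 15 with plain library size). Foxp1 gave 9 and Bach2 4 of the 18 lower in TGFβ iTreg. By gene sums 4 genes of the list were higher and 2 lower there, with a median log2 difference of 0.06 against -0.11 over the regions. Between the cultures, 30 were higher with RA+VitC and none lower (24 and 1 with plain library size), with a median log2 difference of 0.56. Foxp1 gave 19 of these 30 and Bach2, a repressor of effector genes, 6. Bach2 sums were 604 and 599 in naive cells, 555 and 556 in Treg, 513 and 571 in TGFβ iTreg and 944 and 931 in RA+VitC iTreg. In Satb1, which encodes a chromatin organiser, all 4 tested regions were higher than in naive cells in each of the other 3 groups, with sums of 2.72 and 3.47 in naive cells, 22.0 and 24.4 in Treg, 41.9 and 54.6 in TGFβ iTreg and 45.2 and 45.5 in RA+VitC iTreg.

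In the IL-2 and STAT5 list (73 regions in 9 genes), 13 regions were higher and none lower in RA+VitC iTreg against TGFβ iTreg (8 and 0 with plain library size), 17.8% of them beside 4.27% of all members. Against naive cells 4 were higher and 12 lower in Treg, 16 and 12 in TGFβ iTreg, and 27 and 6 in RA+VitC iTreg (25 and 13 with plain library size). The survival genes Bcl2 (7 of 20) and Bcl2l1 (3 of 5) gave 10 of the 13 regions higher between the cultures. Bcl2 sums stood at 628 and 626 in naive cells, 567 and 545 in Treg, 629 and 755 in TGFβ iTreg and 1018 and 941 in RA+VitC iTreg. The T cell receptor list (162 regions in 22 genes) had 15 regions higher and 35 lower in Treg than in naive cells (9.26% and 21.6%, beside 12.6% and 9.29% of all members). In TGFβ iTreg 20 were higher and 23 lower than in naive cells. In RA+VitC iTreg 42 were higher and 20 lower, which plain library size turned to 36 and 42. Ptprc, which encodes CD45, moved differently by group, with 167 and 160 in naive cells, 110 and 119 in Treg, 200 and 271 in TGFβ iTreg and 272 and 271 in RA+VitC iTreg. The transcription factor gene Nfatc2 had 9 of 11 regions higher in RA+VitC iTreg than in naive cells and none lower.

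Activation and AP-1 genes had 55 tested regions in 15 of 30 genes. Against naive cells 25 were higher and none lower in Treg, 26 and 2 in TGFβ iTreg, and 34 and 2 in RA+VitC iTreg. Hexokinase 2 (Hk2) sums stood at 12.6 and 13.1 in naive cells, 20.2 and 22.1 in Treg, 49.4 and 42.0 in TGFβ iTreg and 77.7 and 75.2 in RA+VitC iTreg, in that order without overlap. The costimulatory ligand Cd86 was highest in TGFβ iTreg (79.2 and 96.1), above RA+VitC iTreg (66.1 and 72.9), Treg (49.1 and 44.7) and naive cells (30.2 and 36.1). Its difference between the cultures (log2 -0.40, adjusted p = 0.0062) did not pass without TGFβ iTreg replicate 2 (-0.24, adjusted p = 0.381), without RA+VitC iTreg replicate 1 (-0.32, adjusted p = 0.119) or with DESeq2 (adjusted p = 0.051). In the TGFβ pathway list (155 regions in 23 genes) the directions were mixed, with 37 higher and 31 lower in Treg against naive cells, 22 and 27 in TGFβ iTreg, and 35 and 33 in RA+VitC iTreg (30 and 43 with plain library size). Smurf2, a ubiquitin ligase for TGFβ receptors, had 12 of 16 regions lower in Treg, and its sums were 181 and 181 in naive cells, 105 and 114 in Treg, 113 and 114 in TGFβ iTreg and 129 and 124 in RA+VitC iTreg. The corepressor gene Ski was lowest in TGFβ iTreg (338 and 382), and all 4 of its tested regions were higher with RA+VitC (609 and 603).

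Retinoic acid response genes had 38 tested regions in 9 of 23 genes. Against naive cells 16 were higher and 3 lower in RA+VitC iTreg, 9 and 1 in TGFβ iTreg, and 2 and 3 in Treg. Rxra, the retinoid X receptor, gave 8 of the 9 in TGFβ iTreg and 5 of the 16 in RA+VitC iTreg. By gene sums 1 gene of the list was higher and 1 lower in TGFβ iTreg, with a median log2 difference of -0.15. Between the cultures 7 were higher and 2 lower (5 and 3 with plain library size). The gut-homing receptor genes Ccr9 and Itga4 had 3 of 9 and 2 of 8 regions higher with RA+VitC. Itga4 sums were 25.1 to 32.8 in the other 6 libraries and 49.4 and 46.1 with RA+VitC (log2 0.63 between the cultures, adjusted p = 0.0015; 0.52 and adjusted p = 0.0721 without TGFβ iTreg replicate 1). Rxra was lower with RA+VitC: its sums were highest in TGFβ iTreg (100 and 140), above RA+VitC iTreg (75.7 and 85.9; log2 -0.64, adjusted p = 7.57e-08) and naive cells (56.1 and 58.7). Without TGFβ iTreg replicate 2 the difference between the cultures was -0.37 and did not pass (adjusted p = 0.069).

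The T helper lineage list had 162 regions in 17 genes. Against naive cells 39 were higher and 13 lower in Treg, 35 and 8 in TGFβ iTreg, and 51 and 32 in RA+VitC iTreg (44 and 40 with plain library size). Rora accounted for 25 of the 39 in Treg, and Stat4, which relays interleukin-12 signals, for 9. Il12rb2, a chain of the interleukin-12 receptor, had 7 of 16 regions lower in Treg and 9 lower in RA+VitC iTreg, with sums of 61.9 and 60.9 in naive cells, 43.0 and 37.0 in Treg, 52.8 and 65.2 in TGFβ iTreg and 28.5 and 28.8 in RA+VitC iTreg. Lists of other cell types had few tested intronic regions: 36 for B cells, 19 for myeloid and dendritic cells and 2 for CD8 and NK cells. In Treg against naive cells their counts higher and lower were 8 and 2, 1 and 5, and 0 and 1; in TGFβ iTreg they were 10 and 0, 4 and 5, and 0 and 0; in RA+VitC iTreg they were 13 and 5, 2 and 5, and 0 and 1. Their part in the results was not tested. A list drawn up for long genes active in neurons had 258 regions in 11 genes. Against naive cells 45 were higher and 43 lower in Treg, 29 and 23 in TGFβ iTreg, and 43 and 65 in RA+VitC iTreg (40 and 89 with plain library size). Wwox (136) and Fhit (61) held most of these regions, so the counts describe mainly these genes. Wwox alone gave 28 of the 45 higher and 30 of the 43 lower in Treg.

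Calls depended on the width of the intronic region, which goes with its read count. Under 500 bp (median 1.48 CPM) 8.41% of tested regions were higher and 4.82% lower in Treg than in naive cells. Over 5000 bp (2697 regions, median 30.2 CPM) the shares were 21.9% and 27.8%. In TGFβ iTreg against naive cells 18.5% of the widest regions were higher and 34.7% lower, while under 500 bp 11.1% were higher and 3.02% lower. TGFβ iTreg against Treg also had fewer of the widest regions higher (16.8%) than lower (28.4%). In RA+VitC iTreg more of them were higher than lower against naive cells (36.3% and 30.3%) and against Treg (35.4% and 22.9%), a balance that plain library size turned against naive cells (29.4% and 45.3%) and against Treg (26.3% and 40.3%). Between the cultures 28.1% of the widest regions were higher with RA+VitC and 3.04% lower, against 1.16% and 1.14% under 500 bp. With plain library size 18.1% of the widest were higher and 6.15% lower. TGFβ iTreg had the fewest reads per region (a median of 3 and 4), and the part of depth in these shares was not tested. The filter on low counts could be passed through the libraries of 1 group alone. A region, narrow or not, could thus be tested only because it was high there. The balance of higher and lower calls, under 500 bp and over all members, is therefore not independent of the filter. A filter on a mean of at least 50 reads over the 8 pull-downs does not look at groups. Under it 49.1% to 56.1% of calls on members were higher in the 6 comparisons, in place of 57.1% to 72.9%. With no filter the range was 59.6% to 75.6%. The part of the filter in these shares was not tested. The median of 1.48 CPM under 500 bp also lies near the level that 0 reads can hide in TGFβ iTreg (1.82 and 1.42 CPM).

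**Figure D5:**
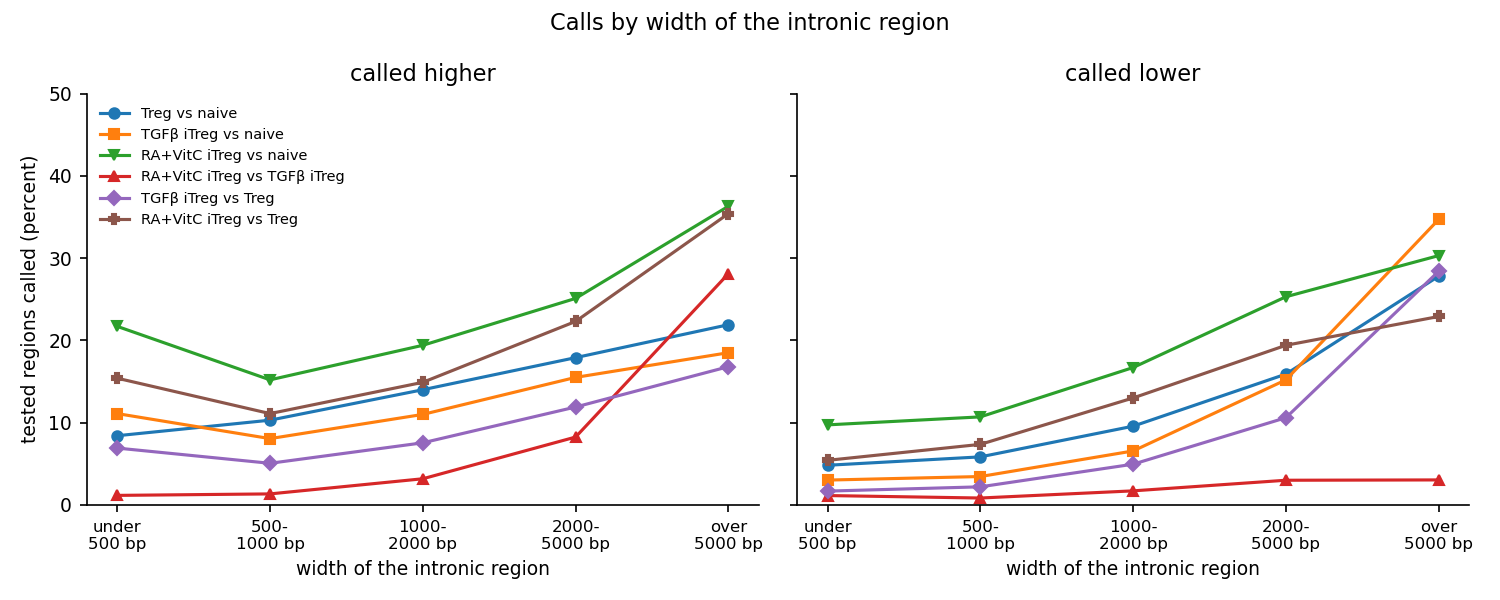
Percent of tested intronic regions called higher (left panel) and lower (right panel) by width of the region, for the 6 comparisons. In all 6 comparisons both shares are largest over 5000 bp, where TGFβ iTreg against naive cells has 34.7% lower and RA+VitC iTreg against TGFβ iTreg has 28.1% higher but 3.04% lower.

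Position along the gene went with the calls to a smaller degree. In Treg against naive cells the share higher was 9.29% within 5 kb of the transcript start, 11.8% at 5 to 20 kb and 16.8% beyond 200 kb, and the share lower was 6.40%, 8.31% and 10.8%. Between the cultures the share higher with RA+VitC was 5.06% within 5 kb, 5.22% at 5 to 20 kb and 3.19% beyond 200 kb, and the share lower was 1.05%, 1.47% and 2.07%. In RA+VitC iTreg against naive cells the share higher moved little, from 19.1% within 5 kb to 21.0% beyond 200 kb, and the share lower went from 11.5% to 18.1%. Width and level also fell with distance, from medians of 1043 bp and 3.3 CPM within 5 kb to 891 bp and 2.45 CPM beyond 200 kb. Their part in these shares was not tested. Intronic regions were also set against regions on promoters and 5′ untranslated regions. Between the cultures 7.10% of the latter were higher with RA+VitC and 1.38% lower, against 4.27% and 1.59% of the intronic regions. In TGFβ iTreg against naive cells 44.8% of calls on 5′ parts were higher, against 59.5% of calls on introns and 72.5% of calls outside genes. These shares were not tested against each other.

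For 3676 genes both introns and the 5′ part had tested regions. In RA+VitC iTreg against naive cells, 1213 of them had introns called only higher, of which 504 had 5′ regions called only higher and 95 only lower. Over all 3676 genes the 5′ part was called only higher in 954 and only lower in 718. In TGFβ iTreg against naive cells, 1043 had introns called only higher, with the 5′ part only higher in 255 and only lower in 88, beside 562 and 636 of all 3676. Some genes went opposite ways. In Stim1, the calcium sensor of the endoplasmic reticulum, 15 of 31 intronic regions were lower in RA+VitC iTreg than in naive cells and both 5′ regions were higher (median log2 -0.63 in introns, 1.27 on the 5′ part). Atxn10 had 16 of 30 intronic regions lower and its 1 tested 5′ region higher. In TGFβ iTreg 8 of 13 intronic regions of Rxra were higher than in naive cells and its 5′ region was lower (log2 -1.12). In Treg 23 of 28 intronic regions of Man1c1 were lower than in naive cells, while its 5′ region was higher (log2 0.79).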

How the data were processed

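CMS-IP was sequenced in 8 pull-down and 8 input libraries. The values are raw read counts per region (build mm9), deposited by the authors without normalization. Peak calling with MACS2 (2.1.0.20151222), read trimming with Trim Galore (0.4.2), SAMtools (1.7) and bcl2fastq (2.20.0.442) are credited to the submitters' processing notes. Which aligner and counter made the counts, and whether libraries were pooled for peaks, is not given in the sources used here.

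Counts of the 8 pull-downs over all regions were fitted in R 4.3.3 with edgeR 4.0.16, using TMM factors, the filterByExpr rule (minimum count 10), a model with the group as its term, quasi-likelihood F tests and Benjamini-Hochberg adjustment over all 135412 tested regions at 0.05. Each comparison reuses groups of the same fit, so comparisons share libraries. The SE printed with a log2 difference is its absolute value over the square root of the F statistic. It is derived from the test and is not a separate estimate of error. Reads of members with a single intron gene were summed per symbol and fitted likewise, with TMM factors of their own, so a fold can differ slightly from the ratio of printed levels. Levels (CPM) use TMM-scaled library sizes from the region fit; input levels use plain library sizes. Entrez IDs were turned into symbols through a RefSeq gene table of another build, used for names alone; 68200 of 69422 members had a symbol found in it. Distances are from the start of the transcript the deposited table names.

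Named genes were, per comparison, the 8 with most regions higher and the 8 with most lower, the 4 with the largest share either way among those with at least 8 tested, the 4 with most in both directions, the 4 highest and 4 lowest regions (mean of at least 30 reads, replicates not overlapping) and up to 4 per list. Predicted and clone names were left out. Genes set against their 5′ parts were chosen after their values were seen. The members and lists were chosen with earlier results of these data known. The count model was tested on simulated data. Alternatives were DESeq2 1.42.0, other scalings, filters, equal depth, a replicate block, leaving out each library, and members 1 to 10 kb wide. Some genes are not reported here.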

Additional observations from a re-analysis of the deposited data

How the results depend on the processing

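Counts below are members higher and lower, in the order Treg, TGFβ iTreg and RA+VitC iTreg against naive cells, RA+VitC against TGFβ iTreg, then TGFβ iTreg and RA+VitC iTreg against Treg. DESeq2 gave 1863 and 805, 4196 and 1334, 7188 and 2640, 1144 and 291, 2644 and 827, and 4970 and 1560. Over all 135412 regions it gave 5654 and 2498, 13425 and 4118, 20934 and 7995, 3450 and 1097, 9081 and 2478, and 15276 and 4576. Thinning all pull-downs to the smallest depth left 16358 members tested in place of 50869. The counts were then 928 and 624, 2771 and 1994, 3425 and 2713, 970 and 659, 2174 and 1472, and 2737 and 1985. All 49835 regions tested at that depth gave 2957 and 2077, 9532 and 6094, 10783 and 8308, 2758 and 2357, 7757 and 4323, and 8830 and 5947. A mean of at least 50 reads (7337 members tested) gave 1806 and 1541, 1771 and 1619, 2416 and 2500, 942 and 737, 1540 and 1445, and 2196 and 2277. The 23572 regions tested under that filter gave 5611 and 5015, 6316 and 4978, 7982 and 7702, 2803 and 2882, 5702 and 4296, and 7327 and 6930. Members 1 to 10 kb wide (22852 tested) gave 3671 and 3022, 3028 and 2674, 5210 and 4760, 1540 and 528, 2262 and 1979, and 4380 and 3676. Regions of that width were not counted over the whole table. The filter on 50 reads and the limit on width both test fewer members. Plain library size moved 1 or both counts over 1.5 times in the RA+VitC comparisons: 8636 and 11858, 1261 and 1396, and 6221 and 10011. Over all 135412 regions these comparisons gave 24564 and 32487, 3595 and 4543, and 18461 and 27227 under that scaling. Leaving out 1 library in turn gave 3526 to 6915 and 2647 to 5004, 3115 to 5544 and 1914 to 3898, 7815 to 11121 and 4013 to 7807, 1151 to 2065 and 277 to 897, 2013 to 3851 and 1294 to 2914, and 5852 to 8621 and 2482 to 5913; a group left with 1 library is assumed to vary like the others. The fits without 1 library tested 42976 to 66156 members. The cause of these shifts in the counts was not tested. TMM from intronic regions alone and no filter kept all 12 counts within 1.5 times.

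The data do not show that shared label numbers pair the samples (correlation of deviations 0.02 in both pairs of groups, 7337 members, 2 pairs each). With a replicate block the counts were 6156 and 4521 for Treg against naive cells and 2039 and 746 for RA+VitC against TGFβ iTreg. Over all 135412 regions they were 16931 and 13068, and 5811 and 2494.

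Among the named gene sums called in the main fit, 1 value changed sign: Wwox in RA+VitC iTreg against Treg, 0.16 on the log2 scale, was -0.001 with plain library size. Of the other values under that scaling 414 were kept, meaning still called in the same direction or still uncalled. The signs of uncalled values were not compared. Equal depth ended 36 calls, DESeq2 19 and leaving out 1 library 83, while 1679 values kept theirs when a library was left out. The shares of reads fell when members under the filter were left out, by less than 2 percentage points. Depth limits TGFβ iTreg most: a median of 3 and 4 reads per member.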

Other observations

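Genes of the DNA methylation machinery had 76 tested intronic regions in 18 of 28 genes. In Treg against naive cells 17 were higher and 5 lower (22.4% and 6.58%, beside 12.6% and 9.29% of all members). In both cultured groups against Treg more were lower than higher. TGFβ iTreg had 2 higher and 11 lower (2.63% and 14.5%, beside 7.81% and 5.49% of all members). RA+VitC iTreg had 8 and 12 (10.5% and 15.8%, beside 16.1% and 11% of all members), or 6 and 21 with plain library size. Tet2, which encodes one of the enzymes that make 5hmC, had 6 of its 12 regions higher in Treg and none lower, against naive cells. Its summed intronic levels stood at 71.8 and 74.3 CPM in naive cells, 114 and 110 in Treg, 75.8 and 74.3 in TGFβ iTreg, and 72.0 and 74.6 with RA+VitC, so that Treg stood alone (log2 0.63 against naive cells, adjusted p = 2.84e-17). The de novo methyltransferase gene Dnmt3a was lowest in TGFβ iTreg (146 and 145), below naive cells (197 and 193), RA+VitC iTreg (213 and 210.0) and Treg (236 and 235). Uhrf2, whose product is a known reader of 5hmC, rose in RA+VitC iTreg to 257 and 259, against 96.8 and 95.3 in naive cells, 112 and 118 in Treg and 131 and 122 in TGFβ iTreg. Of its 11 tested intronic regions 9 were higher than in naive cells and none lower, while its 1 tested region on the 5′ part was lower (log2 -0.50).

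On the X chromosome 893 members were tested. In Treg against naive cells 5.82% of them were higher and 9.29% lower, against 12.7% and 9.30% on the autosomes. In RA+VitC iTreg against Treg 19.3% were higher and 5.82% lower, against 16.1% and 11.1%. These shares were not tested against each other.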
